A study of Saccharomyces cerevisiae W303 with 16 samples.

Results

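In budding yeast, *Saccharomyces cerevisiae*, 9 transcripts annotated as long noncoding RNAs were followed: *HRA1*, *ICR1*, *IRT1*, *PWR1*, *RME2*, *RME3*, *RUF20*, *RUF21* and *RUF23*. They were taken by name, as 9 of the 16 noncoding RNA rows among the 6952 transcripts quantified in the total RNA-Seq libraries. The list was chosen by name with the RNA-Seq levels of these libraries, expected counts and TPM over strain and temperature, in view, so the levels and fold changes of the 9 RNAs are given as a description, without a test. Counts of the 9 called by the fit are printed beside the share of all transcripts called, and adjusted p-values are given only for other genes. The gene lists used below were also chosen with earlier results of these data known, so their counts and medians are descriptions too. The libraries came from a pair of MATa haploid strains in the W303 background: *SUP45* (HFY114), with the wild-type gene for the translation termination factor eRF1, and *sup45-ts* (HFY1218), in which that gene is replaced by the temperature-sensitive allele sup45-2. Both strains also carry can1-100, ura3-1, trp1-1, ade2-1, his3-11,15 and mutations in *LEU2*. Cells were grown in YPD at 25°C and then either kept at 25°C or moved to 37°C for 30 min, which gives 4 groups of 2 RNA-Seq libraries and a matching set of 8 ribosome profiling libraries. The labels do not say whether replicates were separate cultures, so the errors below measure the spread between libraries, which may be technical.

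Long noncoding RNAs of yeast often act in cis: transcription of the RNA itself, across a promoter or along the opposite strand of a gene, blocks or permits expression of the neighbour. *IRT1* is transcribed through the promoter of *IME1*, the master regulator of entry into meiosis, and is switched on in haploid cells by the repressor of meiosis Rme1. *RME2* runs antisense to *IME4*, the mRNA N6-methyladenosine methyltransferase, and *RME3* runs antisense to *ZIP2*, a protein of the synaptonemal complex, which pairs chromosomes in meiosis. Both keep the sense gene off in haploid cells and are repressed by the a1-alpha2 factor of diploids. *ICR1* crosses the long promoter of *FLO11*, the cell surface flocculin of filamentous growth, and represses it, whereas *PWR1* on the opposite strand interferes with *ICR1*. *HRA1* lies antisense to the start of *DRS2*, which encodes an aminophospholipid flippase, and is a substrate of RNase P. The RUF RNAs have no assigned function.

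The RefSeq annotation of the R64 assembly placed all 9. *RME2* spans VII:141898-144120 on the Crick strand and covers the whole 1803 nt of *IME4* on the other strand, along with the dubious reading frame *YGL193C* on its own strand. *RME3* spans VII:33109-35013 and covers 90.1% of *ZIP2*. *HRA1* (I:99305-99868, Watson strand) covers 393 nt of *DRS2*. *ICR1* (IX:393884-397082) ends upstream of *FLO11* and contains both *YIR020C*, a dubious reading frame on the same strand, and *PWR1* (IX:395999-396939, Watson strand). *IRT1* (X:605936-607424) ends upstream of *IME1*. The remaining 3 lie on chromosome VI and meet genes only through the UTR lengths that the authors used. *RUF20* (131061-131503) and *RUF21* (57815-58521) overlap only the 3′ UTRs of *SEC4* and *TUB2* on the opposite strand. *RUF23* (221714-221967) overlaps the 3′ UTR assigned to *RRT5* by 51 nt. The quantified length of *RRT5* matches the default UTR lengths given to genes without an annotated UTR, and *RUF23* does not reach the *RRT5* gene itself. The libraries were stranded, but the setting used in counting is not stated. That reads were assigned by strand is inferred from opposite-strand pairs of very unequal counts: *HRA1* had as little as 0.0037% of the counts of *DRS2*. The part of stray opposite-strand reads in low antisense values was not tested, and it bears most on *PWR1* beside *ICR1* and on *IME4*, which had 0.28% to 1.01% of the counts of *RME2* in 6 libraries and 2.47% and 2.83% in *sup45-ts* at 37°C. The quantified lengths ranged from 254 nt for *RUF23* to 3199 nt for *ICR1*.

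**Figure D1:**
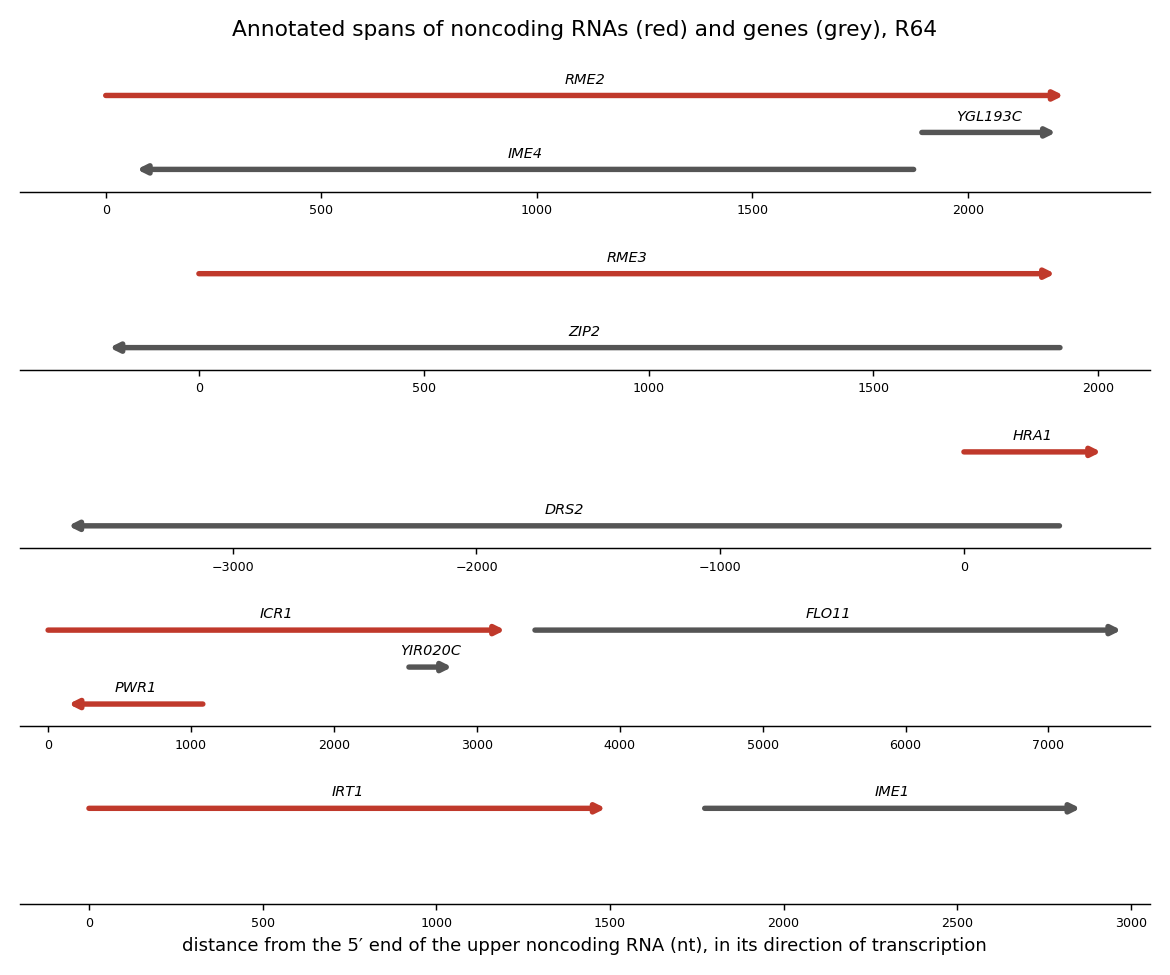
Annotated spans of 5 noncoding RNAs (red; *PWR1* also red) and the genes beside them (grey) in the R64 annotation, as distance in nt from the 5′ end of the upper noncoding RNA, with arrows in the direction of transcription. *RME2*, *RME3* and *HRA1* lie opposite a gene, whereas *ICR1* and *IRT1* run toward the start of *FLO11* and *IME1*.

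The RNA-Seq libraries held 107324550 to 153654244 expected counts, which are the read numbers that RSEM assigns to each transcript. The 9 RNAs together took 0.0040% to 0.0062% of the counts in 6 libraries and 0.0286% and 0.0269% in the pair of *sup45-ts* libraries at 37°C. Levels are given as TPM, each transcript's share of a library after correction for its length, so they are relative. In bulk RNA, fewer cells expressing a transcript and less RNA per cell cannot be told apart. The cells were checked against their mating type and the shift. The summed level of 5 a-cell markers lay between 1956 and 2141 TPM in 6 libraries and between 879 and 1190 TPM in *sup45-ts* at 37°C. The summed level of 4 alpha-cell markers lay between 5.73 and 16.8 TPM in the same 6 libraries and between 38.9 and 42.2 TPM in *sup45-ts* at 37°C. All 10 heat markers were called higher at 37°C in both strains, beside 38.4% of all transcripts in *SUP45* and 44.6% in *sup45-ts*.

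**Figure D2:**
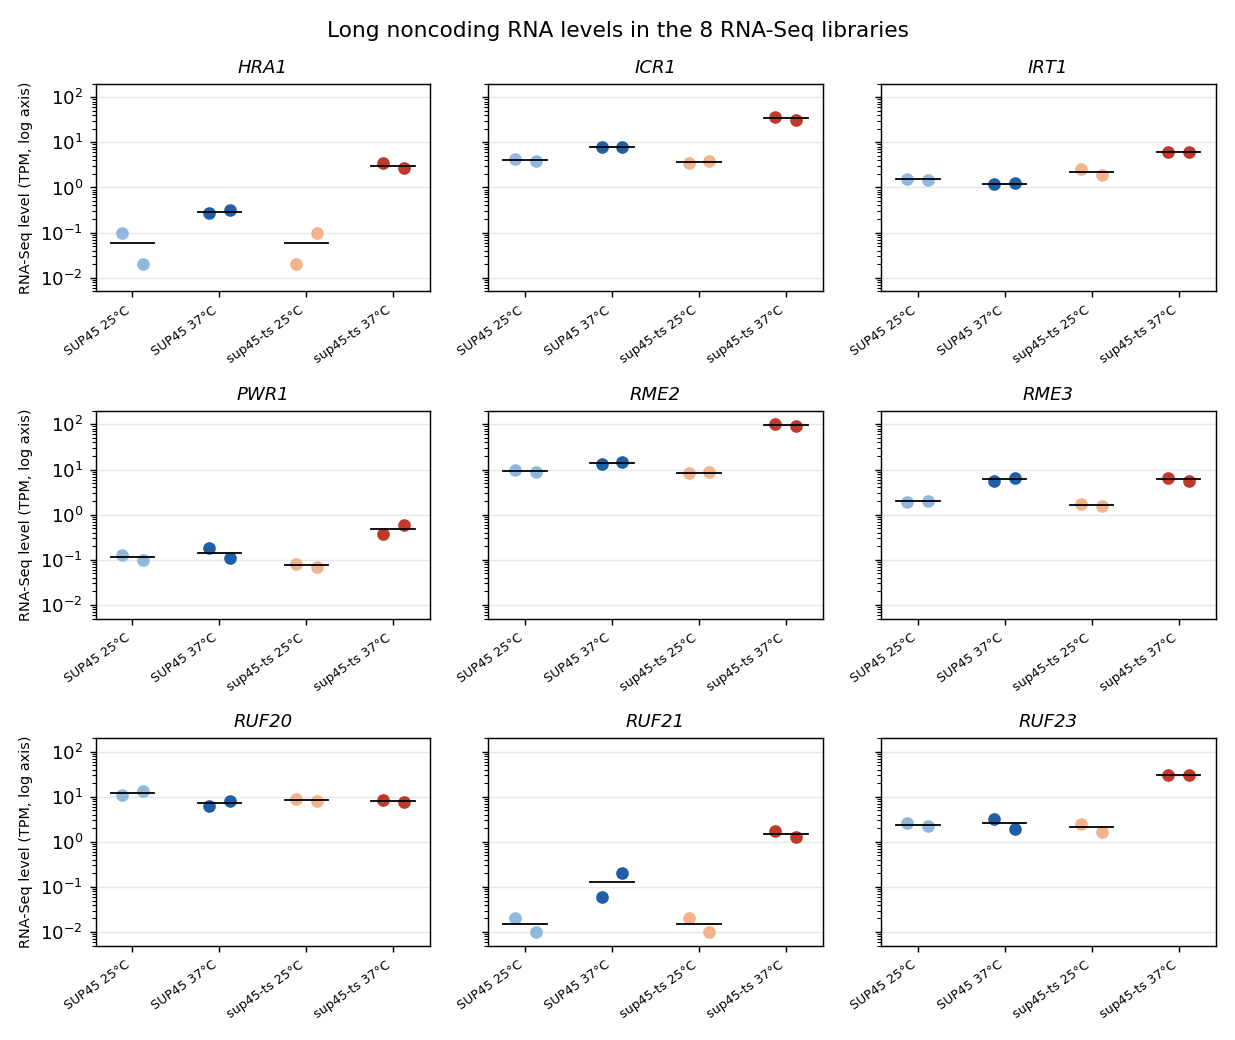
Levels of the 9 noncoding RNAs in TPM (log axis) in each of the 8 RNA-Seq libraries, with 1 point per library and a bar at the mean of each group of 2. The list was chosen with these levels in view. *RME3* and *RUF20* overlap between the strains at 37°C, and the others are highest in the pair of *sup45-ts* libraries there.

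At 37°C, where the mutant eRF1 is inactivated, 7 of the 9 RNAs were higher in *sup45-ts* than in *SUP45*, and *RME3* and *RUF20* overlapped between the strains. With *RUF21* left out, the differences of the 7 ran from 3.16-fold for *PWR1* to 11.4-fold for *RUF23*. All libraries of the 2 groups were apart for these 7, beside a background of 44.9% of transcripts higher without overlap. The pooled edgeR fit called 7 higher and 0 lower, beside a background of 39.5% of all 6767 transcripts tested called higher and 39.4% called lower. No reading is taken from this count, because the list was chosen with these levels in view. The median log2 fold change was 2.32 over the 9 RNAs and −0.01 over all transcripts. All 9 passed the filter on low counts, *RUF21* only through its level in *sup45-ts* at 37°C. Its rise there is thus tied to the filter, and the 7 and the median take it in.

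The antisense RNA *RME2* was the most abundant of the 9 at 37°C in both strains. Its level was 9.76 and 8.63 TPM in *SUP45* at 25°C, 13.2 and 14.4 TPM in *SUP45* at 37°C, 8.42 and 8.71 TPM in *sup45-ts* at 25°C, and 100.05 and 89.9 TPM in *sup45-ts* at 37°C. The last 2 libraries stood above all others with no overlap. The difference between strains at 37°C was 6.77-fold (log2 2.76, SE 0.07). *RME2* exceeded 23.6% of all transcripts in *SUP45* at 37°C and 75.5% in *sup45-ts*.

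Its sense partner *IME4* was near the lower limit of measurement outside that condition. *IME4* had 0.04 and 0.04 TPM in *SUP45* at 25°C (12 and 8 counts), 0.16 and 0.12 TPM at 37°C (36 and 20 counts), and 0.03 and 0.06 TPM in *sup45-ts* at 25°C (6 and 14 counts). It rose to 2.95 and 3.04 TPM in *sup45-ts* at 37°C (489 and 605 counts), 20.7-fold above *SUP45* (log2 4.37, SE 0.25, adjusted p = 2.58e-07, edgeR quasi-likelihood test with Benjamini-Hochberg adjustment). Thus the sense and antisense rows were both higher in the same libraries, where *IME4* had 2.47% and 2.83% of the counts of *RME2*. The part of stray *RME2* reads in these *IME4* counts was not tested. The TPM ratio of *RME2* to *IME4* lay between 145 and 281 at 25°C, at 82.4 and 120 in *SUP45* at 37°C, and at 33.9 and 29.6 in *sup45-ts* at 37°C. *YGL193C*, whose reads on the same strand are shared with *RME2* by RSEM, rose 7.09-fold (adjusted p = 8.08e-07). With their reads summed, the *RME2* difference was log2 2.76.

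*RME3*, the second antisense RNA at a meiotic gene, did not follow *RME2*. Its level was 1.9 and 2.04 TPM in *SUP45* at 25°C, 5.46 and 6.59 TPM in *SUP45* at 37°C, 1.74 and 1.59 TPM in *sup45-ts* at 25°C, and 6.55 and 5.57 TPM in *sup45-ts* at 37°C. The strains overlapped at 37°C, with a log2 difference of −0.02 (SE 0.13). Its partner *ZIP2* moved from 0.59 and 0.71 TPM to 3.73 and 4.03 TPM in *SUP45*, and from 0.64 and 0.59 TPM to 16.8 and 13.5 TPM in *sup45-ts*. The difference in *ZIP2* between the strains at 37°C was 3.83-fold (log2 1.94, SE 0.13, adjusted p = 6.1e-07, edgeR). The antisense RNA was thus above the mRNA in 6 libraries, at TPM ratios of 1.46 to 3.22, and below it in both *sup45-ts* libraries at 37°C, at 0.39 and 0.41.

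*IRT1*, which crosses the *IME1* promoter, was the only one of the 9 to stand higher in *sup45-ts* without overlap at both temperatures. At 25°C, 23.7% of all transcripts did so. It was measured at 1.58 and 1.47 TPM in *SUP45* at 25°C, 1.17 and 1.26 TPM in *SUP45* at 37°C, 2.51 and 1.86 TPM in *sup45-ts* at 25°C, and 6.10 and 6.19 TPM in *sup45-ts* at 37°C. The strain difference was 1.51-fold at 25°C (log2 0.60, SE 0.17) and 4.98-fold at 37°C (log2 2.32, SE 0.18).

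*IME1* itself was low but rose with the shift. It had 0.57 and 0.51 TPM in *SUP45* at 25°C and 2.91 and 2.98 TPM at 37°C, against 0.54 and 0.42 TPM and 4.68 and 4.35 TPM in *sup45-ts*. At 37°C it was 1.51-fold higher in *sup45-ts* (log2 0.59, SE 0.16, adjusted p = 0.00597, edgeR). The TPM ratio of *IRT1* to *IME1* in *SUP45* was 2.77 and 2.88 before the shift and 0.40 and 0.42 after it. In *sup45-ts* it was 4.65 and 4.43 before and 1.3 and 1.42 after. The RNA across the promoter was therefore the more abundant of the pair everywhere except in *SUP45* at 37°C.

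**Figure D3:**
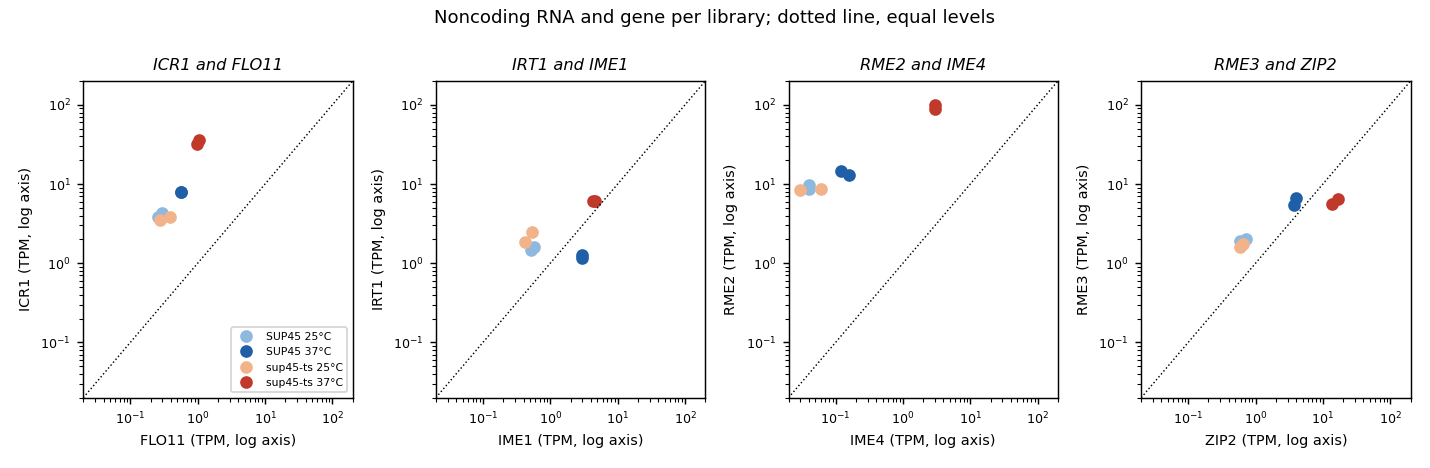
Levels of *ICR1*, *IRT1*, *RME2* and *RME3* against *FLO11*, *IME1*, *IME4* and *ZIP2*, in that order, the genes they are known to regulate. Both are in TPM on log axes, with 1 point per library and equal levels on the dotted line. *RME3* falls below *ZIP2* in *sup45-ts* at 37°C (ratios of 0.39 and 0.41), and *IRT1* falls below *IME1* in *SUP45* at 37°C (0.40 and 0.42).

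At the *FLO11* locus the 2 noncoding RNAs differed widely in level. *ICR1* was measured at 4.26 and 3.88 TPM in *SUP45* at 25°C, 7.99 and 7.82 TPM in *SUP45* at 37°C, 3.50 and 3.84 TPM in *sup45-ts* at 25°C, and 36.5 and 31.8 TPM in *sup45-ts* at 37°C, a 4.24-fold difference between strains at 37°C (log2 2.09, SE 0.07). *PWR1* stayed under 1 TPM throughout, with 16 and 10 counts in *SUP45* at 25°C, 18 and 8 in *SUP45* at 37°C, 7 and 7 in *sup45-ts* at 25°C, and 27 and 51 in *sup45-ts* at 37°C. Its difference at 37°C was 3.16-fold (log2 1.66, SE 0.37). *PWR1* lies wholly inside *ICR1* on the other strand, where *ICR1* itself had 1319 to 11217 counts, so that *PWR1* counts were 0.25% to 0.76% of those of *ICR1*.

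*FLO11* was lowly expressed in all libraries. Its values were 0.30 and 0.26 TPM in *SUP45* at 25°C, 0.56 and 0.57 TPM in *SUP45* at 37°C, 0.28 and 0.39 TPM in *sup45-ts* at 25°C, and 1.04 and 0.98 TPM in *sup45-ts* at 37°C. It rose 1.76-fold between strains at 37°C (log2 0.82, SE 0.17, adjusted p = 0.00136, edgeR). The *ICR1* level was 9.85 to 14.9 times that of *FLO11* in 6 libraries and 35.1 and 32.4 times in *sup45-ts* at 37°C. *YIR020C*, inside *ICR1* on the same strand, was called higher (3.97-fold, adjusted p = 0.0189), but its 2 *sup45-ts* libraries at 37°C held 8.55 and 2.60 TPM. The call was lost without *SUP45* 37°C replicate 1 (log2 1.96), without *SUP45* 37°C replicate 2 (log2 1.99) and without *sup45-ts* 37°C replicate 1 (log2 0.97).

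*HRA1* was hardly detected outside *sup45-ts* at 37°C. It had 6 and 1 counts in *SUP45* at 25°C, 13 and 11 in *SUP45* at 37°C, 1 and 5 in *sup45-ts* at 25°C, and 123 and 115 in *sup45-ts* at 37°C (3.44 and 2.68 TPM), a 10.4-fold difference between strains at 37°C (log2 3.38, SE 0.36). *DRS2*, on the opposite strand, was abundant and moved the other way. It had 85.3 and 80.4 TPM in *SUP45* and 50.9 and 43.2 TPM in *sup45-ts* at 37°C, and fell by 0.84 on the log2 scale (SE 0.07, adjusted p = 3.4e-06, edgeR).

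The RNAs of unknown function divided. *RUF21* had 2 and 1 counts in *SUP45* at 25°C, 4 and 10 in *SUP45* at 37°C, 1 and 1 in *sup45-ts* at 25°C, and 86 and 76 in *sup45-ts* at 37°C, where it reached 1.73 and 1.27 TPM. Its difference at 37°C was log2 3.57 (SE 0.40), and it was 2.84 without *SUP45* 37°C replicate 1 and 4.55 without replicate 2 of that group. *RUF23* was at 2.56 and 2.21 TPM in *SUP45* at 25°C, 3.15 and 1.97 TPM at 37°C, 2.51 and 1.67 TPM in *sup45-ts* at 25°C, and 30.8 and 30.5 TPM at 37°C, an 11.4-fold difference (log2 3.51, SE 0.27). Its counts, in the same order, were low before that last group: 24 and 17, 24 and 11, 18 and 13, and then 172 and 205. *RUF23* is so short that its effective length for TPM was 57.1 nt, which raises its TPM relative to longer RNAs but leaves its fold change as it is.

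*RUF20* was the exception among them. It was at 10.9 and 13.6 TPM in *SUP45* at 25°C, 6.30 and 8.12 TPM in *SUP45* at 37°C, 8.74 and 8.22 TPM in *sup45-ts* at 25°C, and 8.62 and 7.74 TPM in *sup45-ts* at 37°C, with a log2 strain difference at 37°C of 0.16 (SE 0.19). Of the genes beside these RNAs, *RRT5*, whose product is of unknown function, rose 8.06-fold (adjusted p = 3.35e-07). *SEC4*, a Rab GTPase of secretion, fell by 0.60 (adjusted p = 8.14e-06), and *TUB2*, beta-tubulin, fell by 0.96 (adjusted p = 1.03e-05), both on the log2 scale by edgeR. Of the 10 neighbouring rows, 7 rose and 3 fell, beside 39.5% and 39.4% of all transcripts. The 7 include *YGL193C* and *YIR020C*, whose reads are shared with *RME2* and *ICR1*.

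**Figure D4:**
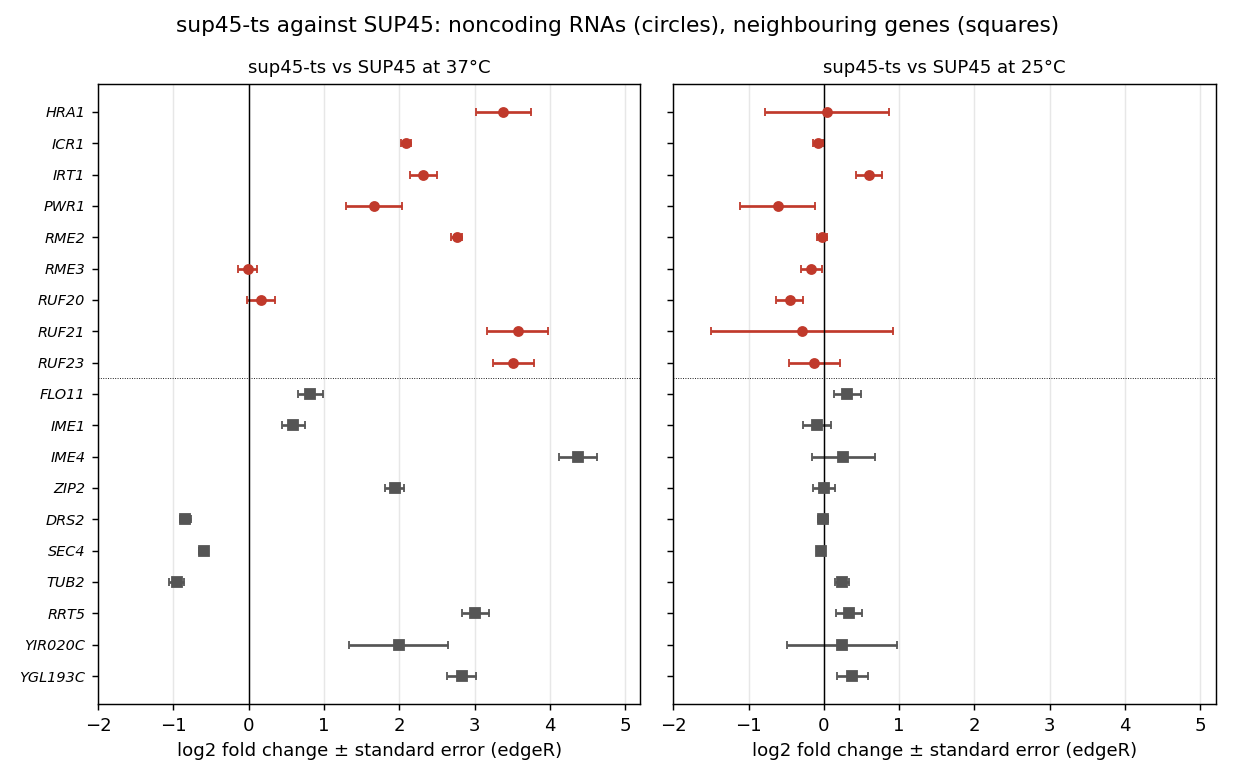
Log2 fold change of *sup45-ts* over *SUP45* with its standard error from the edgeR fit, at 37°C (left) and 25°C (right), for the 9 noncoding RNAs (circles) and the 10 genes beside them (squares). At 37°C the noncoding RNAs run from −0.02 for *RME3* to 3.51 for *RUF23*, leaving out *RUF21* (3.57). *RUF21* passed the filter on low counts only through *sup45-ts* at 37°C. At 25°C none was called.

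The levels of a-cell and alpha-cell markers moved with these differences. Between the strains at 37°C, 5 of 5 a-cell markers fell and 4 of 4 alpha-cell markers rose, beside 39.4% lower and 39.5% higher of all transcripts. The part of these marker changes in the values of *RME2*, *RME3*, *IRT1* and their partners was not tested. *STE3*, the receptor for a-factor, had 4.68 and 5.34 TPM in *SUP45* and 24.3 and 21.5 TPM in *sup45-ts* at 37°C, and *MF(ALPHA)1*, a gene for alpha-factor, had 0.41 and 0.57 TPM against 3.32 and 3.09 TPM. No alpha-cell marker was at 0 in any library. Of the 10 heat markers, 7 were higher and 2 lower in *sup45-ts* at 37°C, beside 39.5% and 39.4% of all transcripts. Their summed levels were 52566 to 54086 TPM in *SUP45* and 71370 to 76239 TPM in *sup45-ts*.

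At 25°C, the permissive temperature of the allele, edgeR called 0 of the 9 RNAs, beside a background of 0.133% of all transcripts. At an unadjusted p under 0.05 the count was 2 of the 9, beside 13% of all transcripts. DESeq2 and limma on log2 TPM each called 0 of the 9, beside 118 and 48 of all 6767 transcripts. Besides *IRT1*, *RUF20* (log2 −0.45, SE 0.18) and *PWR1* (log2 −0.61, SE 0.50) did not overlap between strains, both lower in *sup45-ts*, beside 21.2% of all transcripts lower without overlap. None of the 10 neighbouring genes was called by edgeR, DESeq2 or limma, and 1 had an unadjusted p under 0.05.

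The temperature shift was read with more reserve, because its direction depends on scaling. The main fit centres each comparison on the bulk of transcripts (TMM factors), with a median log2 change between 37°C and 25°C of 0.01 in *SUP45* and 0.03 in *sup45-ts*. Scaled to library totals instead, the medians were 0.56 and 0.66, and on log2 TPM 0.85 and 0.98. Among all called transcripts, the share called higher in *SUP45* was 50.7% with TMM factors, 78.0% with library totals and 86.5% on TPM, and in *sup45-ts* 51.5%, 71.3% and 79.3%.

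Relative to the median transcript, the shift of *SUP45* cells was accompanied by higher *RME3* (log2 0.74, SE 0.13) and lower *RUF20* (−1.64, SE 0.18) and *IRT1* (−1.20, SE 0.18). These 3 kept their direction under library totals and TPM. *RME2* was lower by TMM (−0.28, SE 0.07) but higher by library totals (0.27) and TPM (0.58). *PWR1* was lower by TMM (−0.50, SE 0.44) and higher by library totals (0.038) and TPM (0.18). *RUF23* was lower by TMM (−0.73, SE 0.33) and library totals (−0.19) and at 0.065 by TPM. *ICR1* was at 0.09 (SE 0.07) by TMM and 0.94 by TPM. edgeR called 1 of the 9 higher and 3 lower, beside backgrounds of 38.4% and 37.4%.

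In *sup45-ts*, the shift went with higher *RME2* (log2 2.5, SE 0.07), *ICR1* (2.25, SE 0.07), *RUF23* (2.91, SE 0.28), *PWR1* (1.77, SE 0.43), *RME3* (0.89, SE 0.13) and *IRT1* (0.52, SE 0.17). *HRA1* and *RUF21*, with 5 counts or fewer per library before the shift, are given by their counts above. *RUF20* was lower (−1.02, SE 0.18), although by TPM it differed by only −0.05 and its libraries overlapped. None of the 9 changed direction under library totals or TPM. Over all 9, *HRA1* and *RUF21* included, edgeR called 8 higher and 1 lower, beside backgrounds of 44.6% and 42%. No reading is taken from that count.

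The strain by temperature interaction gives how far the response to the shift differed between strains. It was log2 3.64 (SE 0.44) for *RUF23*, 2.79 (SE 0.10) for *RME2*, 2.28 (SE 0.62) for *PWR1*, 2.16 (SE 0.10) for *ICR1*, 1.72 (SE 0.24) for *IRT1*, 0.62 (SE 0.26) for *RUF20* and 0.15 (SE 0.19) for *RME3*. No value is given for *HRA1* and *RUF21*, whose counts at 25°C were too few. Over all 9, edgeR called 7 higher and 0 lower, beside backgrounds of 34.5% and 35.7%. That count takes in *HRA1* and *RUF21* despite their few counts at 25°C, and no reading is taken from it. The shift raised the meiotic partners in both strains: *IME1* by 1.57 (adjusted p = 2.01e-05) and *ZIP2* by 1.71 (adjusted p = 2.08e-06) on the log2 scale in *SUP45*, and by 2.26 (adjusted p = 9.41e-07) and 3.64 (adjusted p = 6.92e-09) in *sup45-ts*, all by edgeR. *IME4* rose by 5.08 in *sup45-ts* (adjusted p = 8.54e-08) and by 0.97 in *SUP45* (adjusted p = 0.0304). The latter call was lost under DESeq2 and without *SUP45* 25°C replicate 1 (1.11), *SUP45* 25°C replicate 2 (0.86) or *SUP45* 37°C replicate 1 (0.75).

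The order of the 9 RNAs by TPM changed with the condition. In *SUP45* at 25°C *RUF20* led, followed by *RME2* and *ICR1*, with no overlap between these neighbours. In *SUP45* at 37°C *RME2* led, and *ICR1*, *RUF20* and *RME3* followed with overlapping libraries. In *sup45-ts* at 25°C *RME2* and *RUF20* could not be separated. In *sup45-ts* at 37°C the order was *RME2*, *ICR1*, *RUF23* and *RUF20* without overlap, then *IRT1* and *RME3*, which overlapped, and then *HRA1*, *RUF21* and *PWR1*.

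Of the other 7 noncoding RNA rows, 6 were tested. Between strains at 37°C, 3 rose and 1 fell, beside 39.5% and 39.4% of all transcripts. Among the 6, *SRG1*, which is transcribed across the promoter of the serine biosynthesis gene *SER3* and represses it, had the largest difference. It had 52.2 and 59.1 TPM in *SUP45* and 391 and 350 TPM in *sup45-ts* at 37°C, a 6.55-fold rise (adjusted p = 1.78e-08, edgeR). *RUF5-1* and *RUF5-2*, near-identical copies whose reads cannot be divided, held the same values and rose 1.31-fold (adjusted p = 0.00743, edgeR), so they are not separate measurements. *RPR1*, the RNA of RNase P, fell by 0.76 on the log2 scale (adjusted p = 0.0013, edgeR). *SCR1*, the signal recognition particle RNA, was not called (log2 −0.27, SE 0.32); its 2 *sup45-ts* libraries at 37°C differed, at 24443 and 47789 TPM. *RNA170* was not called either (log2 0.28, SE 0.32), and *RUF22* was too low to be tested.

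The genes known to control these RNAs were examined as lists. These lists and those that follow were chosen with earlier results of these data known. No reading is taken from their counts and medians. Of 15 transcriptional regulators of the *IRT1*, *ICR1* and *FLO11* promoters, 9 rose, 3 fell and 3 were not called between the strains at 37°C, beside 39.5% higher and 39.4% lower of all transcripts, with a median log2 change of 0.42. *NRG1*, a glucose-dependent repressor that also acts at *FLO11*, rose most, from 18.5 and 19.2 TPM to 285 and 262 TPM (log2 3.84, adjusted p = 1.26e-09). *MGA1*, a protein resembling heat shock factor, rose by 1.89 (adjusted p = 2.28e-06). *STE12*, an activator of mating and filamentous growth genes, fell by 1.52 (adjusted p = 4.36e-08) and *RPD3*, a histone deacetylase, fell by 0.40 (adjusted p = 0.000104).

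Further regulators are named, some for their known roles, all chosen after their values were seen. *RME1*, the activator of *IRT1*, rose by 0.42 (adjusted p = 7.63e-05). *SFL1*, which promotes *ICR1*, fell by 0.33 (adjusted p = 0.00303), and *FLO8*, which promotes *PWR1*, rose by 1.15 (adjusted p = 2.39e-07). *SET2*, the histone methyltransferase that acts with *IRT1* transcription, rose by 1.01 (adjusted p = 5.62e-07), whereas *SET3*, on the same list, rose by 0.18 (adjusted p = 0.0149). *SIN3* (−0.05), *UME6* (−0.06) and *TEC1* (−0.04) were the regulators not called, all on the log2 scale by edgeR. The *FLO8* row carries only the locus name YER109C, without the mRNA label of the other regulators. The authors' transcriptome held a separate class of blocked genes and pseudogenes. Whether the *FLO8* transcript encodes a functional protein in these cells was not tested.

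Of 18 early meiosis genes, downstream of *IME1* or in the *IME4* complex, 15 rose and 2 fell, beside 39.5% and 39.4% of all transcripts, with a median log2 change of 1.10. *SLZ1*, a subunit of the *IME4* methyltransferase complex, rose from 0.47 and 0.45 TPM to 12.6 and 11.9 TPM (log2 4.70, adjusted p = 1.74e-08), and *MEK1*, a meiotic kinase, rose by 3.26 (adjusted p = 2.4e-08). *KAR4*, which acts in karyogamy as well as in this complex, fell by 0.31 (adjusted p = 0.00108) and *RIM4*, an RNA-binding repressor of translation in meiosis, fell by 1.57 (adjusted p = 2.29e-07). Of 4 flocculin genes other than *FLO11*, *FLO9* rose by 0.54 (adjusted p = 0.00043) and *FLO10* fell by 0.78 (adjusted p = 0.000635). The reads of *FLO9* may be shared with its close relatives *FLO1* and *FLO5*, which were not called.

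Many long noncoding RNAs are short-lived, being removed by the exosome, by Xrn1 or by nonsense-mediated decay. Of 24 genes of RNA decay and termination, 5 rose, 13 fell and 6 were not called, beside 39.5% higher and 39.4% lower of all transcripts, with a median log2 change of −0.38. *NRD1*, which ends transcription of noncoding RNAs, fell from 65.3 and 66.8 TPM to 10.3 and 10.8 TPM (log2 −2.66, adjusted p = 2.4e-08), and *TRF5*, a poly(A) polymerase that marks RNA for the exosome, fell by 1.94 (adjusted p = 7.42e-08). *LRP1*, an exosome cofactor, rose by 2.31 (adjusted p = 2.41e-07), and *NMD2*, a nonsense-mediated decay factor, rose by 0.69 (adjusted p = 1.83e-05). *XRN1*, the cytoplasmic 5′ exonuclease, named after its value was seen, fell by 1.12 (adjusted p = 4.44e-06, edgeR). Others of the list, also named after their values were seen, varied. *DCP2* rose by 0.66 and *UPF3* by 0.32, *NAM7* fell by 0.60, and *RRP6* was not called (−0.08). The part of RNA decay in the levels of the 9 RNAs was not tested.

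Of 10 genes for RNase P subunits and 20S rRNA processing, the machinery linked to *HRA1*, 4 rose and 6 fell, beside 39.5% and 39.4% of all transcripts. *POP3* rose by 1.59 (adjusted p = 6.96e-08) and *RPR2* by 1.53 (adjusted p = 1.3e-07), whereas *POP6* fell by 1.21 (adjusted p = 2.46e-05) and *POP8* by 1.22 (adjusted p = 2.14e-05), all on the log2 scale by edgeR and all encoding subunits of the enzyme. At 25°C, edgeR called 0 genes of these 5 lists. At an unadjusted p under 0.05 there were 3 of 18 early meiosis genes, 2 of 15 regulators, 4 of 24 decay genes, 1 of 10 RNase P genes and 0 of 4 flocculins, beside 13% of all transcripts. DESeq2 called 1 of the 18 early meiosis genes, beside 118 of all 6767 transcripts.

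For each RNA, the transcript with the most similar profile was sought by Pearson correlation of log2 CPM, counts scaled to library size, over the 8 libraries, which share their 4 conditions. The values are descriptions. *RME2* was closest to *GZF3* (r = 0.999), a GATA-type repressor of nitrogen genes, and *ICR1* to *IRA2* (r = 0.999), an inhibitor of Ras signalling. *IRT1* was closest to *RIP1* (r = 0.987), the Rieske iron-sulfur protein of respiration, and *HRA1* to *ASM4* (r = 0.986), a nucleoporin. *RME3* was closest to *YGR168C* (r = 0.993), *PWR1* to *YOR055W* (r = 0.957), *RUF21* to *YMR247W-A* (r = 0.996), *RUF23* to *YGR022C* (r = 0.993), and *RUF20* to the unspliced *RPL36A* transcript (r = 0.989).

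The ribosome profiling libraries, with 556124 to 1411797 expected counts each, held 0 counts for all 16 noncoding RNA rows in all 8 libraries. Reads that aligned to noncoding RNAs were removed before quantification, so a count of 0 gives no upper limit and says nothing about translation. In the tables of footprints per gene, with replicates combined by the authors, *IME4*, *YGL193C* and *YIR020C* had 0 footprints in all 4 conditions and *ZIP2* had 0 to 2. These genes lie under *RME2*, *ICR1* and *RME3*, and whether the removal of noncoding RNA reads took their footprints too was not tested, so no level of translation is read from them. *IME1*, which lies clear of *IRT1*, had 1.29 RPKM before the shift and 4.95 after it in *SUP45* (23 and 85 footprints), and 1.48 before and 11.2 after in *sup45-ts* (33 and 75 footprints), 1 value per condition with no replicates.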

How the data were processed

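Total RNA was depleted of rRNA and made into stranded libraries. The authors deposited RSEM expected counts and TPM for each transcript of an R64-based transcriptome of 6952 transcripts, with the strand setting not stated. For ribosome profiling, the authors removed reads aligning to noncoding RNAs and deposited expected counts, and footprint counts and RPKM per gene with replicates combined. Expected counts were rounded and tested with edgeR 4.0.16 (quasi-likelihood test, TMM factors, filterByExpr with a minimum count of 10) in a single fit of the 8 RNA-Seq libraries with 4 group means, and p-values were adjusted by Benjamini-Hochberg over 6767 transcripts at 0.05. Alternatives used DESeq2 1.42.0, limma 3.58.1 on log2(TPM + 0.1), other scalings and filters, and each library left out. The fit was tested on simulated data. The members and gene lists were chosen with earlier results of these data known. The genes named were all members, partners and noncoding rows, the 2 largest called rises and falls of each list at 37°C, and the most similar transcript of each member. Others (*RME1*, *SFL1*, *FLO8*, *SET2*, *SET3*, *SIN3*, *UME6*, *TEC1*, *XRN1*, *DCP2*, *UPF3*, *NAM7*, *RRP6*, *FLO1*, *FLO5*, *MF(ALPHA)1* and *STE3*) were named after their values were seen. Coordinates and names came from RefSeq, and UTR lengths from the authors' annotation. The authors' readthrough tables also hold values not used here.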

Additional observations from a re-analysis of the deposited data

Results flagged for a closer look

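The response to the shift from 25°C to 37°C differed between the strains for 8 of the 10 genes beside the noncoding RNAs. The measure was the interaction term of the edgeR fit (the log2 change in *sup45-ts* minus that in *SUP45*). Of the 10, 5 were called higher and 3 lower, beside 34.5% and 35.7% of all transcripts. The term was positive for *IME4* (4.11, adjusted p = 7.78e-05), *RRT5* (2.67, adjusted p = 1.18e-05), *YGL193C* (2.45, adjusted p = 4.32e-05), *ZIP2* (1.93, adjusted p = 1.95e-05) and *IME1* (0.689, adjusted p = 0.0293), and negative for *TUB2* (−1.2, adjusted p = 4.23e-05), *DRS2* (−0.832, adjusted p = 6.65e-05) and *SEC4* (−0.562, adjusted p = 0.000214), which were lower after the shift in *sup45-ts* by more than in *SUP45* (log2 −1.61 against −0.42, −0.98 against −0.15 and −1.04 against −0.48 on the TMM scale). The *IME1* call was lost under DESeq2 (0.66) and without *SUP45* 25°C replicate 1 (0.62), *SUP45* 37°C replicate 1 (0.67) or 2 (0.69), *sup45-ts* 25°C replicate 2 (0.48), and *sup45-ts* 37°C replicate 1 (0.69) or 2 (0.67).

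On the TMM scale, *IRT1*, *PWR1*, *RME2* and *RUF23* moved in opposite directions with the shift in all libraries of the 2 strains. The share of all transcripts that did so was not computed, so no reading is taken from their number. *PWR1* and *RUF23* rest on few counts. The log2 differences between the strains were 1.72, 2.28, 2.79 and 3.64, in that order. These differences were not tested, because the list was chosen with the levels in view. On the TPM scale, *RME2*, *PWR1* and *RUF23* no longer moved downward in *SUP45* (log2 0.58, 0.18 and 0.07), and only *IRT1* remained lower there (−0.31).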

How the results depend on the processing

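Between the strains at 37°C, all 7 RNAs that were higher and all 10 neighbouring genes kept their direction in every alternative run. The number of transcripts called at 25°C, 9 in the main fit, was 33 with library totals, 118 with DESeq2, 48 with limma on TPM and 0 with only the groups compared, and ranged from 0 to 150 with each library left out; 150 came without *SUP45* 25°C replicate 1. Same-numbered libraries had correlations of 0.00 to 0.22 with 2 pairs, so the numbers do not establish pairing, and a replicate block gave 18 calls at 25°C and, among the genes followed, added a call only for *DRS2* with temperature in *SUP45* (−0.15). With library totals the change with temperature in *SUP45* reversed for *RME2* (0.27), *DRS2* (0.40), *SEC4* (0.072), *TUB2* (0.13), *YGL193C* (0.38) and *YIR020C* (0.23), and with limma on TPM for the same genes (0.58, 0.72, 0.39, 0.46, 0.68 and 0.85). *PWR1*, not called, turned sign under both (0.038 and 0.18) and *RUF23* on TPM only (0.065). The *ZIP2* difference at 25°C (0.00331) reversed with upper quartile factors (−0.011), library totals (−0.092), only the groups compared (−0.0089) and limma (−0.065). With each library left out, directions also varied for values that were not called: between strains at 25°C, *ZIP2* (−0.15 to 0.16), *DRS2* (−0.048 to 0.030), *IME1* (−0.33 to 0.12), *IME4* (−0.37 to 0.66) and *YIR020C* (−0.58 to 1.98), and with temperature in *SUP45*, *YGL193C* (−0.33 to 0.028) and *YIR020C* (−1.13 to 1.43). The cause was not tested. Low counts limit *HRA1*, *PWR1*, *RUF21*, *RUF23* and *IME4*.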
